A study of Mus musculus with 24 samples.

Results

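The genes described here are the fibroblast growth factor (FGF) genes and their feedback genes in mouse embryonic stem cells (ESCs) that lack Tet proteins. They were taken by symbol: every *Fgf* gene with a number except *Fgf5*, the receptors *Fgfr1* to *Fgfr4*, *Spry1* to *Spry4*, *Spred1* to *Spred3*, and *Dusp4*, *Dusp6*, *Etv4* and *Etv5*. This gave 36 of the 22926 symbols in the count tables. They are 17 secreted ligands, 4 FGF homologous factors, 4 receptors, 4 Sprouty genes, 3 Spred genes, 2 dual-specificity phosphatases and 2 ETS factors. RNA-seq was available for 24 libraries, 12 of undifferentiated cells (D0) and 12 of cells grown without leukemia inhibitory factor (LIF) for 6 days (D6). Per day, WT and *Tet1*-/- had 3 libraries, and *Tet2*-/-, DKO (both *Tet1* and *Tet2* knocked out) and TKO (all of *Tet1*, *Tet2* and *Tet3* knocked out) had 2, each library from a clone. All clones came from 1 parental clone of a 129/SVj-derived line that carries eGFP at *Pou5f1*, and the knockouts are small insertions or deletions made with Cas9 and guide RNAs. A library therefore stands for a clone, p-values measure the spread between these clones, and *Tet2*-/- at either day rests on the same 2 clones, replicates 1 and 2. This spread is pooled over all genotypes of a fit. Fits of both days treat the D0 and D6 libraries of a clone as independent, except where the clone is a block.

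FGF ligands bind FGF receptors, which are tyrosine kinases, and the receptors signal through Ras and ERK in ESCs. ERK activity induces its own inhibitors (Sprouty and Spred proteins and the ERK phosphatase *Dusp6*) and the ETS factors *Etv4* and *Etv5*, so the levels of these transcripts are widely used as readouts of FGF signalling. In ESCs *Fgf4* is the main autocrine ligand and helps the cells to leave pluripotency, while *Fgf8* is a ligand of the primitive streak that drives mesoderm migration.

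Tet proteins oxidize methylated cytosine, which in mammals lies mostly in CpG dinucleotides, and the CpG content of promoters differed widely among these genes. The 250 bases before the start are shown, 5' to 3' on the strand of the gene, for a pair of genes that were lower and a pair that were higher in *Tet2*-/- at D6, chosen after their values were seen. Lower case letters are bases and capitals mark each CG, which reads the same on both strands. The sequences are from RefSeq on GRCm38.p6 (the counts were made on mm9), for *Fgf10* chr13:118714449-118714698 (plus strand), *Fgf3* chr7:144838362-144838611 (plus strand), *Fgf18* chr11:33147401-33147650 (minus strand) and *Spry2* chr14:105896820-105897069 (minus strand).
Fgf10: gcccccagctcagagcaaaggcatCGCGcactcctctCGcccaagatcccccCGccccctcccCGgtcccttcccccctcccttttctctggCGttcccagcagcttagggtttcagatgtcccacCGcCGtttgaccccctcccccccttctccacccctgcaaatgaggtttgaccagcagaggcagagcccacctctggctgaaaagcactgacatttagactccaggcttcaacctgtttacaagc
Fgf3: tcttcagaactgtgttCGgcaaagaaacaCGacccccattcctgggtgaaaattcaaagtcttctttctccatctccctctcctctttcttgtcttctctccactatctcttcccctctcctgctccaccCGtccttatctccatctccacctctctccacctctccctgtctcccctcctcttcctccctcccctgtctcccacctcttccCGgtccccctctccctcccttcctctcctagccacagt
Fgf18: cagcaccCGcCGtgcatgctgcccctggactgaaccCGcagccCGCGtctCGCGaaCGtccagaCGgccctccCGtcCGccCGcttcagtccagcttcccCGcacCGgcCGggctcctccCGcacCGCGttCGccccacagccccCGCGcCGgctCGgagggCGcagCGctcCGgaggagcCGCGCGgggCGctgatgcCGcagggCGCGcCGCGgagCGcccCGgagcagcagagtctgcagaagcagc
Spry2: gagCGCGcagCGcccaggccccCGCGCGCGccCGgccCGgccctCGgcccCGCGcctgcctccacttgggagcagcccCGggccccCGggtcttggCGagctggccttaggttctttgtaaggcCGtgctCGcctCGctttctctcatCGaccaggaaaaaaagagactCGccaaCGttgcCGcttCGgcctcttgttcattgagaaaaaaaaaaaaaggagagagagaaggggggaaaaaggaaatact
The stretch held 8 CpG for *Fgf10* and 4 for *Fgf3*, against 37 for *Fgf18* and 23 for *Spry2*. Over the 32851 promoters of the same length in the table the median was 6 CpG, with quartiles of 2 and 16. Fewer CpG than in the *Fgf10* promoter were present in 57% of all promoters, and the share was 37.8% for *Fgf3*, 97.8% for *Fgf18* and 86.7% for *Spry2*. The 2 promoters listed for *Fgfr3*, which was also lower, held 19 and 24 CpG. Of the 36 genes, 25 had a promoter in the table. Methylation was not analysed here, so these counts describe the sequence only.

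The libraries held 21729346 to 37290208 counts at D0 and 18400463 to 34219640 at D6. By these totals alone a count of 3 in a library corresponded to 0.0805 to 0.163 CPM (counts scaled to library size). The levels given in the text are also scaled by TMM factors (0.918 to 1.10), so for them this range is approximate. Because the knockouts are indels, the Tet transcripts are only a partial check of the labels: at D0 *Tet2* was 87.9 to 94.0 CPM in WT and 8.16 to 55.7 CPM in *Tet2*-/-, DKO and TKO, while the WT and knockout ranges of *Tet1* overlapped. At D6 *Tet2* was 12.3 to 16.0 CPM in WT, 15.9 to 16.6 CPM in *Tet2*-/-, 5.73 to 9.99 CPM in DKO and 10.5 to 16.2 CPM in TKO, so this transcript does not check the *Tet2*-/- and TKO labels of that day. *Tet3* was lower in TKO than in all other libraries at either day, at 2.84 to 4.43 CPM against 5.05 to 7.94 CPM at D0 and at 7.72 to 8.74 CPM against 12 to 21.0 CPM at D6. ESC markers (10 genes) summed to 4985 to 6002 CPM at D0. At D6 they summed to 861 to 1801 CPM in WT and 2305 to 2522 CPM in *Tet2*-/-. In bulk RNA, fewer cells of a type and less RNA per cell cannot be told apart. After the filter on low counts, 24 of the 36 genes could be tested at D0 and 27 at D6. A gene was called changed when the edgeR quasi-likelihood test gave an adjusted p under 0.05 over all genes tested and the change exceeded 2-fold. The D0 and D6 libraries were in separate tables, so day and any difference in handling between the tables cannot be told apart.

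The WT course of LIF withdrawal was described first, as the background for the knockouts. In WT, 18 of 27 genes were called between D6 and D0 (11 higher, 7 lower), and 34% of all 15639 genes tested were called (20.7% higher, 13.3% lower). The median log2 change of the 27 genes was 0.35, against 0.01 for all genes. Markers of other cell states moved over the same days, with 8 of 8 streak and mesoderm, 5 of 7 endoderm and 4 of 5 trophectoderm markers called higher, and 9 of 10 ESC, 1 of 7 endoderm and 2 of 3 neuroectoderm markers called lower. Streak and mesoderm markers summed to 11.1 to 15.6 CPM in WT at D0 and 259 to 768 CPM at D6, and their part in the changes of the FGF genes was not tested. The ligands moved in opposite directions. *Fgf8* stood at 0.162, 0.206 and 0.345 CPM in the 3 WT libraries at D0 (4 to 8 counts) and at 67.1, 117 and 113 CPM at D6. The rise was 8.69 ± 0.411 on the log2 scale (standard error, adjusted p = 1.4e-11), with a size that rests on a few D0 counts. *Fgf10*, a mesenchymal ligand for *Fgfr2*, went from 3.33 to 5.98 CPM at D0 to 16.7, 79.6 and 72.7 CPM at D6, a rise of 3.65 ± 0.675 on the log2 scale (adjusted p = 0.000112). Every WT library at D6 was above every WT library at D0 for both genes.

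*Fgf4* showed the opposite course in WT, from 214, 211 and 213 CPM at D0 to 91.2, 12.6 and 23.9 CPM at D6. The D6 clones were far apart, all below D0, and the fall was -2.31 ± 0.455 (log2, adjusted p = 0.000205). *Fgf18* fell by a like amount (-2.31 ± 0.558, adjusted p = 0.0013), from 1.73 to 5.87 CPM at D0 to 0.353 to 1.2 CPM at D6. *Fgf1*, which binds all FGF receptors, fell at low counts (-1.48, adjusted p = 0.025), a call lost in 4 of 24 fits that left out 1 library, those without WT replicate 2 or 3 of either day (-1.22 to -1.46). *Fgf3* rose (1.41 ± 0.585, adjusted p = 0.0399), a call lost in 5 of these fits, those without any D0 WT library or without D6 WT replicate 2 or 3 (1.18 to 1.59). *Fgf15* (log2 change 0.35, adjusted p = 0.555) and *Fgf17* (-0.64) were not called.

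Among the receptors *Fgfr2* had the largest change in WT, from 1.98, 5.02 and 2.03 CPM at D0 to 43.2, 36.8 and 35.9 CPM at D6 (log2 change 3.68 ± 0.344, adjusted p = 4.49e-08). *Fgfr3* rose (1.45, adjusted p = 0.00257) and *Fgfr4* fell (-1.40, adjusted p = 0.000605). *Fgfr1*, the leading receptor per length, was 83.9, 78.9 and 87.8 CPM at D0 and 125, 202 and 191 CPM at D6, a rise of 1.05 ± 0.16 (log2, adjusted p = 1.5e-05). Without D6 WT replicate 2 or replicate 3 the log2 change of *Fgfr1* was 0.93 or 0.99 and it was no longer past 2-fold.

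The feedback genes did not move together in WT. *Spry4* fell from 276, 299 and 285 CPM to 23.7, 28.7 and 21.7 CPM (log2 change -3.54 ± 0.357, adjusted p = 1.14e-07), and *Spry2* from 107, 111 and 114 CPM to 43.5, 42.7 and 44.9 CPM (-1.34 ± 0.216, adjusted p = 2.66e-05). *Spry1* rose from 16.5, 17.9 and 18.7 CPM to 69.4, 52.8 and 43.6 CPM (1.64 ± 0.158, adjusted p = 6.13e-08). For each of these Sprouty genes the D0 and D6 ranges of WT were apart. *Dusp4*, a nuclear phosphatase of ERK and other MAP kinases, rose (2.67 ± 0.3, adjusted p = 4.1e-07), while *Dusp6*, the cytoplasmic ERK phosphatase, had a log2 change of 0.11. *Etv4* fell from 159, 168 and 154 CPM to 17.0, 30.3 and 41.2 CPM (-2.44 ± 0.226, adjusted p = 3.98e-08). *Etv5* passed the adjusted p but not the 2-fold limit (-0.75, adjusted p = 0.00188). *Spred2*, the Spred gene with the most counts, was 56.8 to 57.1 CPM at D0 and 67.2 to 74.3 CPM at D6 in WT (0.31).

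**Figure D1:**
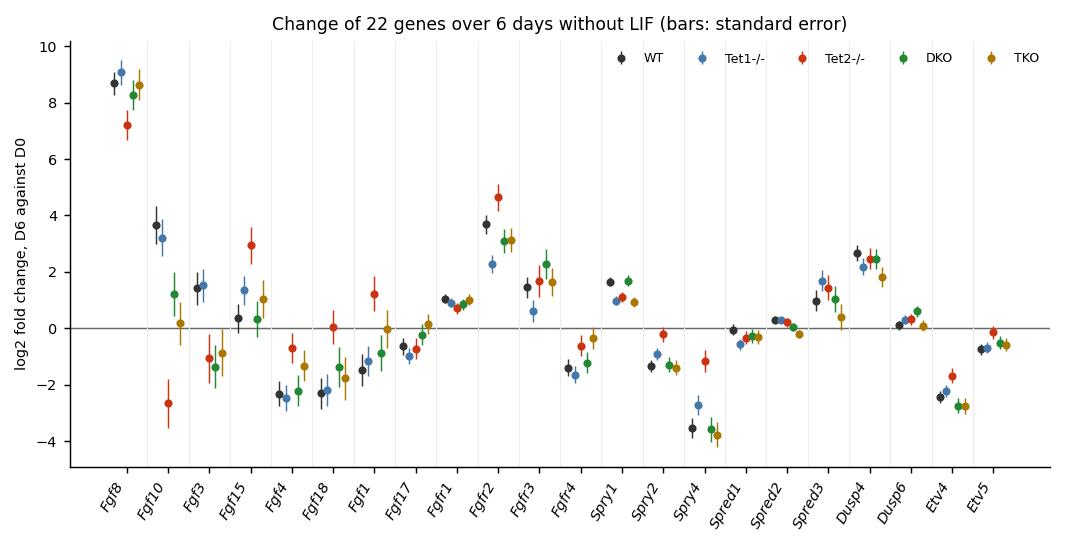
Change from D0 to D6 (log2, y axis) of 22 genes (x axis) in each genotype (coloured points, bars are standard errors), with a line at no change. *Fgf8* rises in every genotype (7.20 to 9.07), *Fgf10* rises in WT (3.65) and falls in *Tet2*-/- (-2.66), and the fall of *Spry4* is -1.16 in *Tet2*-/- and -3.54 in WT.

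Levels of different genes were compared per kilobase of exon. The count was that of the first transcript row of a gene, while the length joined all its protein-coding exons. For genes with more than 1 row, such as *Fgf8* (4 rows, the first not the highest) and *Fgfr1* (3 rows), these levels are therefore approximate. At D0 *Fgf4* was the leading ligand, at 70.1 ± 0.501 CPM per kb in WT (mean ± SD, n = 3), followed by *Fgf17* at 20.1 ± 5.70 CPM per kb. *Fgfr1* was the leading receptor, at 15.4 ± 0.814 CPM per kb, while *Fgfr2* was 0.522 ± 0.302. At D6 the leading ligand of WT was *Fgf8*, at 73.3 ± 20.5 CPM per kb, ahead of *Fgf4* (14.1 ± 14.0), *Fgf10* (13.7 ± 8.39) and *Fgf17* (12.9 ± 3.1), which did not differ beyond their spread. In *Tet2*-/- at D6 the order was another one, with *Fgf4* at 44.3 ± 0.0229 CPM per kb and *Fgf15* at 32.1 ± 0.331 ahead of *Fgf8* at 15.6 ± 2.11 (n = 2). *Fgfr1* led the receptors at D6 in both genotypes, at 31.8 ± 7.66 CPM per kb in WT and 34.2 ± 3.07 in *Tet2*-/-.

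**Figure D2:**
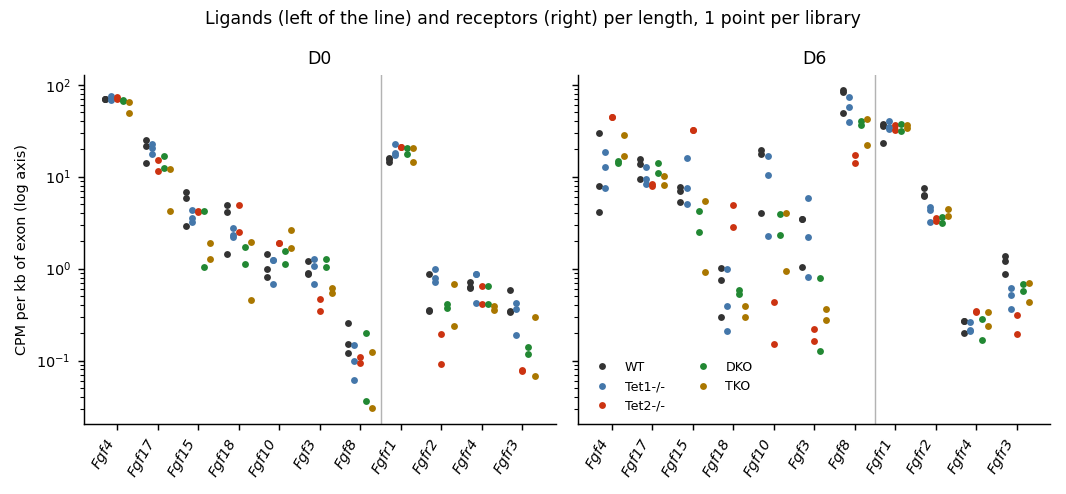
Level per length (CPM per kb of exon, log axis) of 7 ligands and 4 receptors in every library (points, coloured by genotype) at D0 and D6. At D0 *Fgf4* is highest in every library, and at D6 the *Tet2*-/- points are the highest for *Fgf4*, *Fgf15* and *Fgf18* and the lowest for *Fgf8* and *Fgf10*.

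The comparison of *Tet2*-/- with WT at D6 asked which of these genes differed in cells without *Tet2* after LIF withdrawal. The ligands *Fgf15*, *Fgf18* and *Fgf1* and the inhibitors *Spry4* and *Spry2* were higher in *Tet2*-/-, and the ligands *Fgf10*, *Fgf3* and *Fgf8* and the receptor *Fgfr3* were lower. These 9 of 27 genes (5 higher, 4 lower) stood beside 14.3% of all 15435 genes tested (4.81% higher, 9.45% lower). The median log2 difference was 0.44 over the 27 genes and -0.03 over all genes. Both *Tet2*-/- libraries lay outside all the other 10 libraries of the day for 10 of 27 genes (7 higher, 3 lower), and this was so for 30.2% of all genes (15.1% higher, 15.2% lower). The libraries of no other knockout lay outside all others at D6 for any of the 27 genes, with 0.428% of all genes for *Tet1*-/-, 3.45% for DKO and 8.16% for TKO.

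*Fgf8*, *Fgf10* and *Fgf3* were the ligands called lower. *Fgf8* was 67.1, 117 and 113 CPM in WT and 23.1 and 19.1 CPM in *Tet2*-/-, a difference of -2.25 ± 0.342 (log2, adjusted p = 0.00434). *Fgf10* was 16.7, 79.6 and 72.7 CPM in WT and 1.78 and 0.628 CPM in *Tet2*-/- (62 and 18 counts), a difference of -5.52 ± 1.12 (adjusted p = 0.00844). For both genes the *Tet2*-/- libraries were below every other library at D6. *Fgf3*, which like *Fgf8* is expressed in the primitive streak, was 2.43, 7.97 and 8.1 CPM in WT and 0.518 and 0.384 CPM in *Tet2*-/- (-3.76 ± 1, adjusted p = 0.0202). For *Fgf3* a DKO library lay lower still, at 0.299 CPM. WT clone O4.2 (D6 replicate 1) had the lowest *Fgf8*, *Fgf10* and *Fgf3* of WT, and the highest *Fgf4*. This library also had the highest ESC markers of WT at D6 (1801 CPM, against 861 and 1033). Its streak and mesoderm markers (259 CPM, against 691 and 768) and endoderm markers (80.4 CPM, against 288 and 207) were the lowest. The part of these markers was not tested.

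*Fgf15*, *Fgf18* and *Fgf1* were the ligands called higher. *Fgf15*, an endocrine ligand that is also made in the embryonic brain, was 14.1, 12.6 and 9.55 CPM in WT and 57.6 and 58.4 CPM in *Tet2*-/- (2.25 ± 0.582, adjusted p = 0.0187). *Fgf18* was 1.2, 0.353 and 0.891 CPM in WT and 3.40 and 5.89 CPM in *Tet2*-/- (2.46 ± 0.556, adjusted p = 0.0116). *Fgf1* was 0.617, 0.353 and 0.286 CPM in WT and 1.99 and 1.64 CPM in *Tet2*-/- (2.08 ± 0.656, adjusted p = 0.0368). The *Tet2*-/- libraries were above every other D6 library for these 3 genes. *Fgf4* was 91.2, 12.6 and 23.9 CPM in WT and 134 and 134 CPM in *Tet2*-/-, and also here *Tet2*-/- was above all others. Its log2 difference of 1.63 ± 0.633 was not called (adjusted p = 0.0741), but without WT clone O4.2 it was 2.86 (adjusted p = 0.00241), with replicate numbers as a block 1.96 (adjusted p = 0.0415) and in a fit of all 24 libraries 1.65 (adjusted p = 0.0123). The other settings, DESeq2 among them, and the other fits without 1 library did not call *Fgf4*.

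Of the receptors *Fgfr3* was called lower in *Tet2*-/- at D6. It was 4.28, 5.95 and 6.65 CPM in WT and 0.950 and 1.53 CPM in *Tet2*-/-, below all other libraries (-2.20 ± 0.361, adjusted p = 0.00482). *Fgfr3* was below every WT library in the other knockouts too, at 1.80 to 3.41 CPM, with differences of -1.21 in *Tet1*-/-, -0.86 in DKO and -1.0 in TKO that edgeR did not call (adjusted p = 0.318, 0.28 and 0.122). *Fgfr2* was 43.2, 36.8 and 35.9 CPM in WT and 18.9 and 20.6 CPM in *Tet2*-/- (-0.98 ± 0.179, adjusted p = 0.00605). It passed the adjusted p but was just inside 2-fold, and with library totals in place of TMM factors it was -1.04. *Fgfr2* was also lower than in WT in every library of the other knockouts, at 18.3 to 27 CPM. *Fgfr1* was 174 and 198 CPM in *Tet2*-/-, within the WT range of 125 to 202 CPM. *Fgfr4*, the lowest of the receptors in WT at D6 per length (0.248 ± 0.0414 CPM per kb), was 1.12 and 1.15 CPM in *Tet2*-/- and 0.668 to 0.908 CPM in WT, and was not called.

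Among the feedback genes *Spry4* differed most, at 23.7, 28.7 and 21.7 CPM in WT and 154 and 163 CPM in *Tet2*-/- (2.66 ± 0.449, adjusted p = 0.00533). *Spry2* was 43.5, 42.7 and 44.9 CPM in WT and 105 and 94.8 CPM in *Tet2*-/- (1.17 ± 0.286, adjusted p = 0.0151). For *Spry4* both *Tet2*-/- libraries were above all others, whereas for *Spry2* a *Tet1*-/- library reached 95.4 CPM. *Dusp6* was 99.9, 106 and 101 CPM in WT and 182 and 171 CPM in *Tet2*-/- (0.77 ± 0.198, adjusted p = 0.0183), short of 2-fold. *Dusp6* was above every WT library in the other knockouts too, at 117 to 210 CPM in *Tet1*-/-, 143 to 181 CPM in DKO and 126 to 152 CPM in TKO. *Etv4* was 17.0, 30.3 and 41.2 CPM in WT and 55.7 and 62.8 CPM in *Tet2*-/- (0.99 ± 0.284, adjusted p = 0.0265), at the edge of 2-fold. With DESeq2, with DESeq2 size factors in edgeR and with no filter the log2 difference of *Etv4* was 1.01, past the limit. *Etv5* was 203, 114 and 120 CPM in WT and 215 and 197 CPM in *Tet2*-/- (0.48, adjusted p = 0.135). *Spred3* was 5.48, 15.1 and 8.91 CPM in WT and 21.8 and 22.5 CPM in *Tet2*-/- (1.16 ± 0.459, adjusted p = 0.078), above all others but not called by edgeR. It was called by DESeq2 (1.17, adjusted p = 0.0369), with all 24 libraries in 1 fit (1.18, 0.0269) and without either TKO library or WT replicate 2 (1.16 to 1.63).

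**Figure D3:**
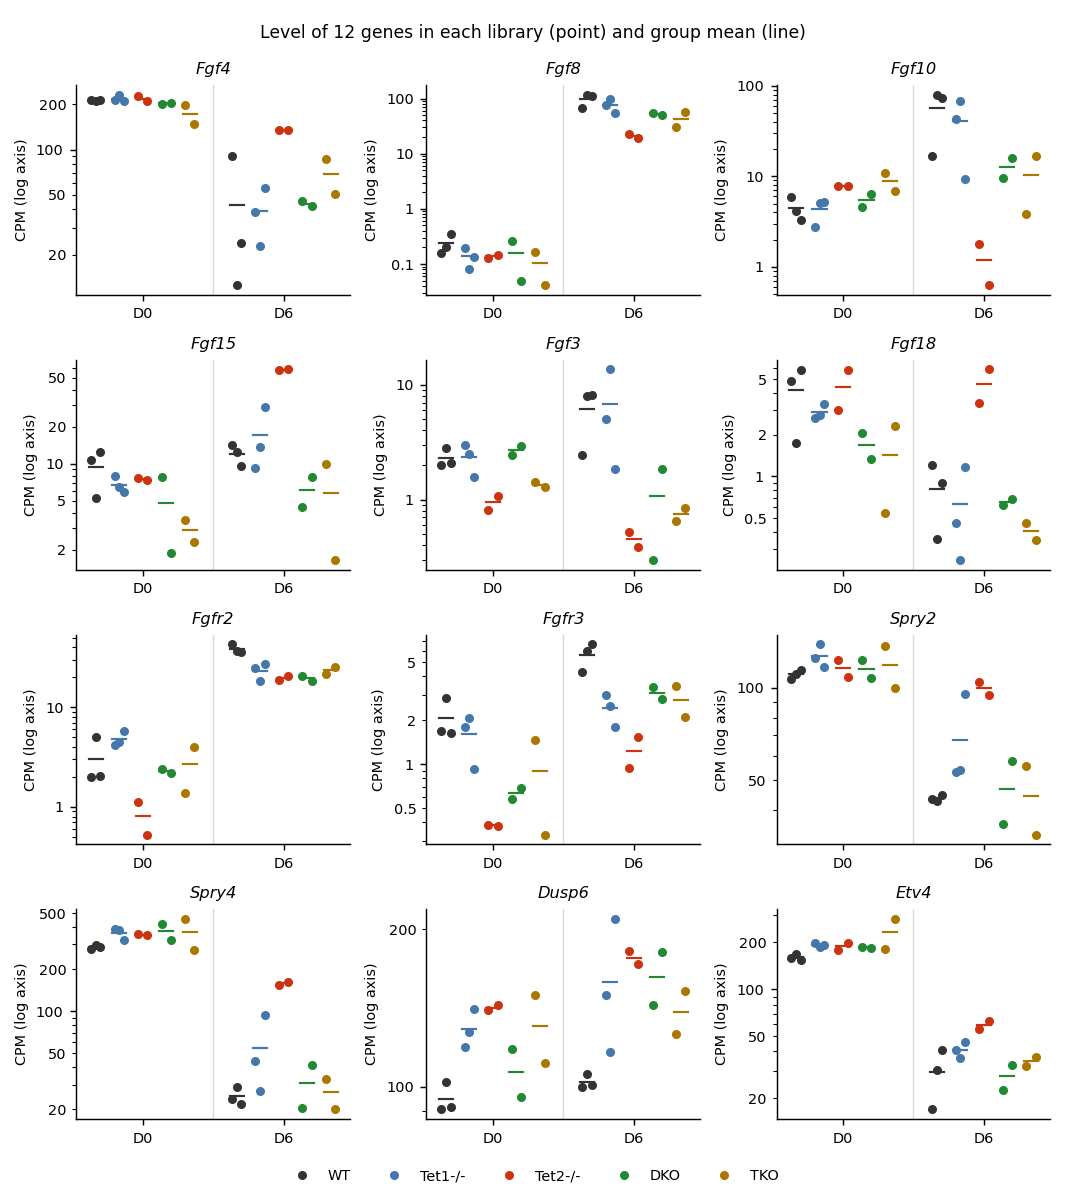
Level (CPM, log axis) of 12 genes in every library (points) with the group mean (line), by day and genotype. At D6 the 2 *Tet2*-/- points are above all others for *Fgf4*, *Fgf15*, *Fgf18*, *Spry4* and *Etv4*, and below all others for *Fgf8*, *Fgf10* and *Fgfr3*.

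A fit without 1 *Tet2*-/- library leaves 1 sample in that arm, which is assumed to vary like the other groups. Without D6 *Tet2*-/- replicate 2 edgeR called none of the 27 genes and 0 of all genes, and without replicate 1 the calls of *Fgf8* and *Spry4* were left while 304 genes were called in all. Without replicate 1 and without replicate 2 the log2 differences were -6.49 and -4.99 for *Fgf10*, 1.94 and 2.22 for *Fgf1*, 2.26 and 2.24 for *Fgf15*, -1.89 and -2.57 for *Fgfr3* and 1.10 and 1.25 for *Spry2*. The log2 differences from WT kept their sign in all these fits. *Fgf1*, *Fgf15* and *Fgf3* were also lost without 1 of the WT clones, at adjusted p of 0.0891 and 0.116 for *Fgf1*, 0.0514 and 0.0669 for *Fgf15* (without WT replicate 2 or 3) and 0.0552 for *Fgf3* (without WT replicate 3). Markers of other cell states moved with the same comparison. Primitive streak and mesoderm markers (8 genes, *T*, *Eomes* and *Mixl1* among them) summed to 259, 691 and 768 CPM in WT and 102 and 66.5 CPM in *Tet2*-/-, and 7 of 8 were called lower. Neuroectoderm markers (5 genes) summed to 9.13 to 24.7 CPM in WT and 119 to 139 CPM in *Tet2*-/-, with 3 of 3 tested called higher and *Neurog2* at 0 in both groups, and to 122 to 286 CPM over all D0 libraries. Endoderm markers summed to 80.4 to 288 CPM in WT and 22.3 to 26.8 CPM in *Tet2*-/- (4 of 7 called lower), and trophectoderm markers to 322 to 723 and 80.3 to 81.2 CPM (4 of 5 lower), with *Elf5* at 0 in *Tet2*-/-. Of the 10 ESC markers 2 were called higher and 1 lower by edgeR, with a median log2 difference of 1.10. DESeq2 called 5 of them, and 7 passed an unadjusted p under 0.05 and 2-fold. The part of all these markers in the differences of the FGF genes was not tested.

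**Figure D4:**
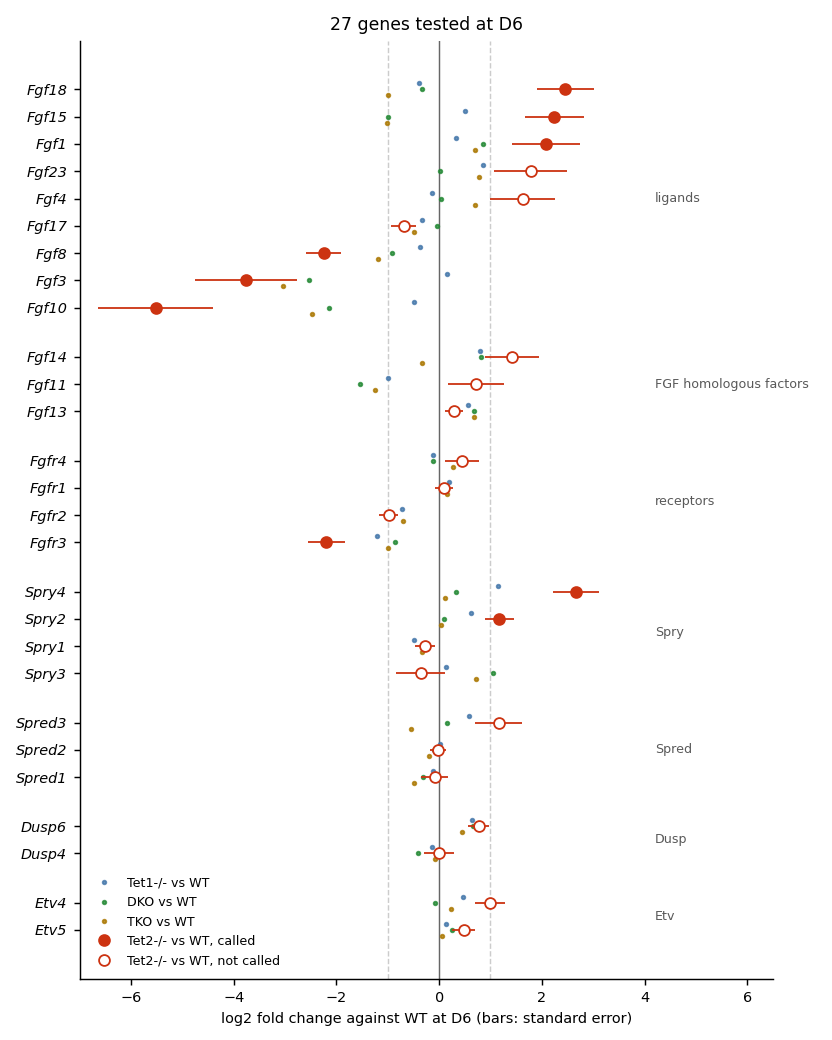
Log2 difference from WT at D6 of the 27 tested genes (x axis), with *Tet2*-/- as large points (filled where called, open where not, bars are standard errors) and the other knockouts as small points; dashed lines mark 2-fold. Called values in *Tet2*-/- run from -5.52 (*Fgf10*) to 2.66 (*Spry4*).

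*Fgf3*, *Fgf4* and *Fgf15* lie side by side on the plus strand of mouse chromosome 7 (mm9, *Fgf3* at chr7:152023988-152030341, *Fgf4* at chr7:152047291-152051148 and *Fgf15* at chr7:152082437-152086858). The 3 genes span 62.9 kb, with 16.9 kb between *Fgf3* and *Fgf4* and 31.3 kb between *Fgf4* and *Fgf15*. In *Tet2*-/- at D6 the neighbours differed from WT in opposite directions, *Fgf3* lower (-3.76) and *Fgf15* higher (2.25), with *Fgf4* between them at 1.63 and not called. In DKO and TKO *Fgf3* differed from WT by -2.54 and -3.04 (adjusted p = 0.262 and 0.107, not called), while *Fgf15* was 4.48 and 7.72 CPM in DKO and 9.94 and 1.65 CPM in TKO, around or below WT.

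**Figure D5:**
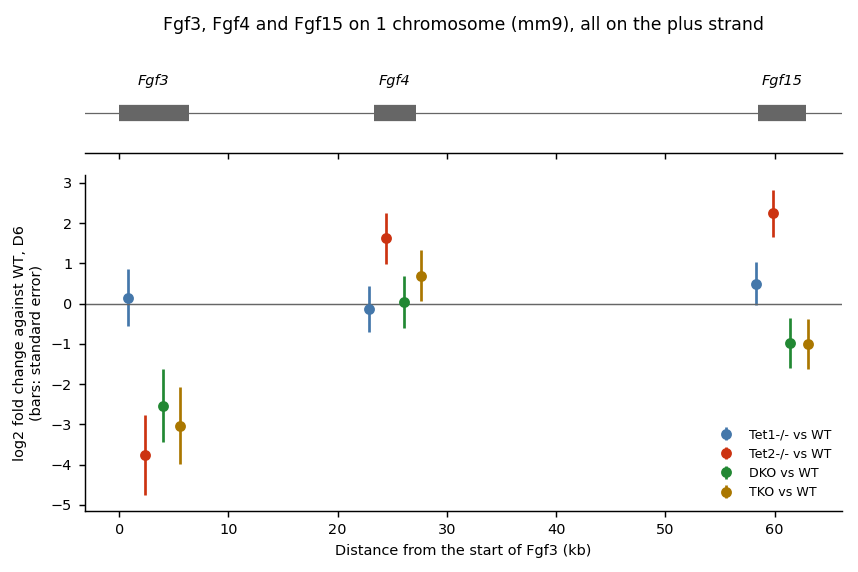
Map of *Fgf3*, *Fgf4* and *Fgf15* in kb from the start of *Fgf3* (top) and their log2 difference from WT at D6 in each knockout with standard errors (bottom). *Fgf3* is negative (-3.76) and *Fgf15* positive (2.25) in *Tet2*-/-, while in DKO and TKO *Fgf3* is -2.54 and -3.04 and *Fgf15* is -0.99 and -1.01.

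*Tet2*-/- was next compared with each other knockout at D6, since DKO and TKO lack *Tet2* as well. These comparisons share the *Tet2*-/- libraries, and the genes called in them are given side by side. Against *Tet1*-/-, 4 of 27 genes were called (1 higher, 3 lower), with 6.36% of all genes called (1.87% higher, 4.48% lower). Against DKO 8 were called (6 higher, 2 lower), with 9.5% of all genes (3.13% higher, 6.37% lower), and against TKO 4 (4 higher), with 8.64% (2.63% higher, 6.01% lower). *Fgf18* was the gene called in all 3, at 2.86 ± 0.562 against *Tet1*-/- (adjusted p = 0.0159), 2.79 ± 0.646 against DKO (0.0183) and 3.45 ± 0.692 against TKO (0.0137). The other knockouts had 0.250 to 1.17 CPM of *Fgf18*, below both *Tet2*-/- libraries. Apart from the *Tet2*-/- libraries, these calls were lost without *Tet1*-/- replicate 1 (2.69), either DKO library (2.72 and 2.88) and TKO replicate 2 (3.28).

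*Fgf15* was higher in *Tet2*-/- than in DKO by 3.23 ± 0.699 (log2, adjusted p = 0.0144) and than in TKO by 3.25 ± 0.701 (adjusted p = 0.017). The TKO clones set the size of the latter, which was 5.1 without TKO replicate 1 (adjusted p = 0.00348) and 2.51 without TKO replicate 2 (adjusted p = 0.0692, not called), and the call against DKO was lost without either DKO library (2.89 and 3.69). *Spry4* was higher than in DKO by 2.34 ± 0.511 (adjusted p = 0.0151) and than in TKO by 2.54 ± 0.517 (adjusted p = 0.0141), at 20.3 and 41.7 CPM in DKO and 33.0 and 20.0 CPM in TKO, with the calls lost without DKO replicate 1 (1.91) and without TKO replicate 2 (2.22). *Spry2* was higher than in both as well, by 1.07 (adjusted p = 0.0459) and 1.13 (adjusted p = 0.0407). The *Spry2* call against DKO was lost in 8 of 12 fits without 1 library (all but those without a TKO library or *Tet1*-/- replicate 2 or 3), with library totals (1.01, adjusted p = 0.0571) and with replicate numbers as a block. Against TKO it was lost in 5 of 12, those without TKO replicate 2, either *Tet2*-/- library or WT replicate 2 or 3. Against *Tet1*-/- edgeR called none of these 3 genes, with 1.75 for *Fgf15* (adjusted p = 0.0766), 1.51 for *Spry4* (0.0518) and 0.55 for *Spry2* (0.226). Other settings called *Spry4* against *Tet1*-/- at 1.53, with an adjusted p of 0.00627 by DESeq2, 0.0299 without the filter and 0.00673 with all 24 libraries in 1 fit. *Fgf15* was called with all 24 libraries (1.76, adjusted p = 0.0307), and both genes were called without either TKO library (adjusted p = 0.0247 for *Fgf15* and 0.0496 to 0.0497 for *Spry4*). A single *Tet1*-/- library, that of clone 2.4 (D6 replicate 3), had the highest *Tet1*-/- level of all 3 genes, 28.6 CPM for *Fgf15*, 93.6 CPM for *Spry4* and 95.4 CPM for *Spry2*, against 9.2 and 13.6, 44.4 and 26.8, and 53.0 and 53.9 CPM in the other clones. Without this library *Spry4* differed by 2.13 (adjusted p = 0.00568) and *Fgf15* by 2.33 (adjusted p = 0.0223), and 9 of the 27 genes were called against *Tet1*-/-, while the number over all genes went from 981 to 1713. The same library had the lowest *Fgf10* and *Fgf3* of *Tet1*-/- (9.38 and 1.86 CPM), ESC markers at 1712 CPM and mesoderm markers at 282 CPM, while the other *Tet1*-/- clones had 593 and 1072 CPM of mesoderm markers. The markers of other cell states moved with all 3 comparisons. Neuroectoderm markers summed to 119 to 139 CPM in *Tet2*-/- and 7.34 to 31.7 CPM over the other knockouts, with 2, 2 and 3 of 3 tested called higher in *Tet2*-/- than in *Tet1*-/-, DKO and TKO. In the same order, 7, 3 and 2 of 8 streak and mesoderm markers, 3, 3 and 0 of 7 endoderm markers and 3, 2 and 4 of 5 trophectoderm markers were called lower. Trophectoderm markers summed to 80.3 to 81.2 CPM in *Tet2*-/- and 274 to 582 CPM over the other knockouts. The part of these markers was not tested.

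*Fgf8* was lower in *Tet2*-/- than in *Tet1*-/- (-1.88 ± 0.337, adjusted p = 0.0131) and in DKO (-1.33 ± 0.351, adjusted p = 0.0297), and the difference from TKO was -1.06 (adjusted p = 0.0634 by edgeR). DESeq2 called the latter (-1.05, adjusted p = 0.0212), as did the fit of all 24 libraries (-1.04, 0.0224) and 4 of 12 fits without 1 library. The call of *Fgf8* against DKO was lost without any 1 of the DKO and *Tet2*-/- libraries (-1.19 to -1.47). *Fgf10* was lower than in *Tet1*-/- (-5.04 ± 1.1, adjusted p = 0.0215), with -3.39 against DKO (0.0571) and -3.05 against TKO (0.0792), which edgeR did not call. DESeq2 called *Fgf10* against both (-3.41, adjusted p = 0.0128, and -3.09, 0.0275), and so did the fit of all 24 libraries (-3.37, 0.00982, and -3.03, 0.0188). Against DKO it was also called without the filter (0.0367) and in 5 of 12 fits without 1 library, and against TKO in 2 of 12. *Fgf3* was lower than in *Tet1*-/- (-3.91 ± 1, adjusted p = 0.0351), a call lost in 5 of 12 fits, those without either *Tet2*-/- library, *Tet1*-/- replicate 1 (-4.08) or 2 (-2.94) or WT replicate 3 (-3.90). The *Fgf10* call against *Tet1*-/- was lost without *Tet1*-/- replicate 1 (-4.98). Against DKO, *Fgfr3* was lower (-1.34 ± 0.376, adjusted p = 0.0373), and *Etv4* (1.07 ± 0.318, adjusted p = 0.0447) and *Fgf11*, an intracellular FGF homologous factor (2.26 ± 0.645, adjusted p = 0.039), were higher. The *Fgfr3* call was lost with all 24 libraries in 1 fit (-1.32, adjusted p = 0.0512) and that of *Etv4* with library totals (1.01, adjusted p = 0.057), and each was lost in 6 of 12 fits without 1 library, those without any DKO or *Tet2*-/- library or WT replicate 2, and without WT replicate 3 (*Fgfr3*) or *Tet1*-/- replicate 1 (*Etv4*). The *Fgf11* call was lost in 5 of 12, those without either *Tet2*-/- library, WT replicate 3, DKO replicate 1 (3.1) or DKO replicate 2 (1.77). *Fgf11* was 4.46 and 3.56 CPM in *Tet2*-/-, 1.17 and 0.460 CPM in DKO and 3.67, 1.21 and 2.32 CPM in WT. In each of the 3 comparisons edgeR called no gene of the 27 without either *Tet2*-/- library of D6 (2 to 304 of all genes), where the single library left is assumed to vary like the other groups. The log2 differences in these fits were 3.24 and 3.22 for *Fgf15* against DKO and 2.58 and 2.51 for *Spry4* against TKO. Other genes moved more with the library left out, to -6.01 and -4.51 for *Fgf10* against *Tet1*-/-, 3.14 and 2.35 for *Fgf18* against DKO and -1.02 and -1.71 for *Fgfr3* against DKO (without replicate 1 and without replicate 2). Other libraries moved these counts too. Against *Tet1*-/- 1 gene was called without *Tet1*-/- replicate 1 (214 of all genes, 981 with all libraries). Against DKO the count was 5 without WT replicate 2 or 3 (1420 and 1240 of all genes, 1466 with all libraries). Against TKO it was 7 without *Tet1*-/- replicate 2, 9 without *Tet1*-/- replicate 3 and 8 without WT replicate 1. Of all genes 1503, 1524 and 1511 were called in these fits, and 1334 with all libraries. Fits without a DKO or TKO library leave 1 sample in that arm, and the calls lost in them are named above.

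Whether the response to LIF withdrawal itself differed was tested as the difference between the D6 to D0 change of a knockout and that of WT. In *Tet2*-/-, 5 of 27 genes were called (4 higher, 1 lower), with 8.68% of all genes called (3.54% higher, 5.13% lower). *Fgf10* was 7.81 and 7.77 CPM at D0 and 1.78 and 0.628 CPM at D6 in *Tet2*-/-, a fall of -2.66 ± 0.872 (log2, adjusted p = 0.021) where WT rose. The difference of the changes was -6.31 ± 1.11 (adjusted p = 0.0033) and was called in each of the 24 fits without 1 library, while the fall within *Tet2*-/- was lost without either D0 library or without D6 replicate 2 of *Tet2*-/- (-2.13 to -2.66). *Spry4* was 354 and 352 CPM at D0 in *Tet2*-/- and 154 and 163 CPM at D6, a fall of -1.16 ± 0.396 (adjusted p = 0.0265) against -3.54 in WT. This difference was 2.39 ± 0.517 (adjusted p = 0.00764) and was also called in each of the 24 fits, while the fall within *Tet2*-/- was lost without any 1 of its 4 libraries (-1.12 to -1.20).

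*Spry2* was 123 and 108 CPM at D0 and 105 and 94.8 CPM at D6 in *Tet2*-/- (log2 change -0.22, adjusted p = 0.536), and differed from the WT course by 1.13 ± 0.336 (adjusted p = 0.0305). *Fgf15* rose in *Tet2*-/- from 7.64 and 7.42 CPM to 57.6 and 58.4 CPM (2.94 ± 0.652, adjusted p = 0.00159), which differed from WT by 2.59 ± 0.808 (adjusted p = 0.0366). *Fgf1* was 0.725 and 0.818 CPM at D0 and 1.99 and 1.64 CPM at D6, and differed by 2.70 ± 0.83 (adjusted p = 0.0338). At D0 *Tet2*-/- was within the WT range for *Fgf15*, overlapped it for *Spry2* and was below it for *Fgf1*. Each of the 3 calls was lost in 8 of 24 fits without 1 library: those without any *Tet2*-/- library of either day, without D0 WT replicate 3, without D6 WT replicate 2 or 3, and without D0 WT replicate 1 (*Fgf15*) or D0 WT replicate 2 (*Fgf1* and *Spry2*). Without D6 WT replicate 1 the count of the 27 genes called was 8, with 2096 of all genes called (1357 with all libraries). *Fgf18* in *Tet2*-/- was 2.99 and 5.87 CPM at D0 and 3.40 and 5.89 CPM at D6, and its course differed from WT by 2.37 (adjusted p = 0.0557), not called by edgeR. It was called by DESeq2 (2.39, adjusted p = 0.029), without the filter (2.38, 0.0461), with the clone as a block (2.32, 0.0491) and in 6 of 24 fits without 1 library. *Fgf3*, with a difference of -2.48 (adjusted p = 0.105), was called by DESeq2 (adjusted p = 0.0443) and without D6 WT replicate 1 (-2.86, adjusted p = 0.0444). With the clone as a block *Fgf4*, at 225 and 211 CPM at D0 and 134 CPM in both clones at D6, was 2.09 (adjusted p = 0.0296), against 1.61 (adjusted p = 0.111) without the block, and without D6 WT replicate 1 it was 2.83 (adjusted p = 0.000458). Of the markers, the course in *Tet2*-/- differed from WT for 5 of 8 streak and mesoderm, 2 of 7 endoderm and 1 of 5 trophectoderm genes (all lower) and for 2 of 3 neuroectoderm and 2 of 10 ESC genes (all higher), and their part was not tested.

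Other parts of the course were seen in every genotype. The rise of *Fgf8* (log2) was 9.07 for *Tet1*-/-, 7.20 for *Tet2*-/-, 8.28 for DKO and 8.64 for TKO, with 1 to 8 counts in each D0 library. *Fgfr2* rose by 2.29, 4.64, 3.09 and 3.14 in the same order, and *Dusp4* by 2.19, 2.47, 2.45 and 1.81. *Etv4* fell by 2.23, 1.68, 2.74 and 2.75 on the log2 scale. In *Tet1*-/- 17 of 27 genes were called (12 higher, 5 lower), with 31.1% of all genes (19.9% higher, 11.2% lower). *Tet2*-/- had 14 (11 higher, 3 lower), with 19.1% of all genes (12.7% higher, 6.44% lower), and 8 without either D0 *Tet2*-/- library or without D6 *Tet2*-/- replicate 2. DKO had 13 (8 higher, 5 lower), with 29.2% (18.6% higher, 10.6% lower), and TKO 12 (8 higher, 4 lower), with 25.4% (16.8% higher, 8.63% lower).

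In TKO the course of *Fgf10*, 10.9 and 6.88 CPM at D0 and 3.85 and 16.6 CPM at D6, differed from WT by -3.47 ± 1.01 (adjusted p = 0.0483), 1 of 27 genes called (1 lower), with 3.58% of all genes called (1.84% higher, 1.74% lower). This call was lost with the clone as a block (-3.50, adjusted p = 0.0568) and in 19 of 24 fits without 1 library, in all but those without D0 TKO replicate 2, D6 TKO replicate 2, D6 WT replicate 1 and D6 *Tet1*-/- replicates 2 and 3. In TKO the course of 3 of 8 streak and mesoderm and 3 of 7 endoderm markers was also lower than in WT, and their part was not tested. The count of FGF and feedback genes was 2 without D6 WT replicate 1, with 1146 of all genes called (560 with all libraries). No gene of the 27 was called for *Tet1*-/- or DKO, where 0% of all genes were called by edgeR. At an unadjusted p under 0.05 and 2-fold there were 2 of the 27 and 378 of all genes for *Tet1*-/-, and 3 and 575 for DKO.

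Before LIF withdrawal, genes were called in *Tet2*-/- and in TKO. In *Tet2*-/- at D0, 3 of 24 genes were called (3 lower), with 3.19% of all 14456 genes called (0.816% higher, 2.37% lower). *Fgf3* was 2.02, 2.84 and 2.07 CPM in WT and 0.811 and 1.08 CPM in *Tet2*-/- (-1.29 ± 0.314, adjusted p = 0.0278). *Fgfr2* was 1.98, 5.02 and 2.03 CPM in WT and 1.11 and 0.526 CPM in *Tet2*-/- (-1.95 ± 0.546, adjusted p = 0.0435). Both genes were lower in *Tet2*-/- than in every other D0 library, and with *Spred3*, which was higher, made 3 of 24 genes outside all other libraries (22.2% of all genes). This was so for *Spred1* (higher) in *Tet1*-/- (3.18% of all genes), *Spry1* (lower) in DKO (4.09%) and *Fgf13* (higher), *Fgf4* and *Fgfr4* (lower) in TKO (9.68%). *Fgfr3* was 1.70, 2.84 and 1.64 CPM in WT and 0.384 and 0.380 CPM in *Tet2*-/- (-2.44 ± 0.565, adjusted p = 0.0236), with a TKO library at 0.330 CPM below them. In the other knockouts the log2 difference of *Fgfr3* from WT was -0.38 in *Tet1*-/-, -1.71 in DKO and -1.20 in TKO, not called by edgeR with all 12 libraries. The DKO difference was called without either TKO library (-1.71, adjusted p = 0.0246 and 0.0245). The TKO clones were apart, at 1.46 and 0.330 CPM, and the TKO difference was -2.63 without replicate 1 (adjusted p = 0.0042, called) and -0.49 without replicate 2. None of the 3 calls held without either *Tet2*-/- library, WT replicate 2 or WT replicate 3, and that of *Fgfr2* was also lost without any 1 of the *Tet1*-/- and DKO libraries (-1.94). In a fit of all 24 libraries *Fgf3* had an adjusted p of 0.294. *Dusp6* was 90.6, 102 and 91.5 CPM in WT and 140 and 143 CPM in *Tet2*-/- (0.56, adjusted p = 0.0264), under 2-fold. *Dusp6* was above every WT library in *Tet1*-/- (119 to 141 CPM) and TKO (111 to 150 CPM) as well, while DKO (95.8 to 118 CPM) overlapped WT.

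In TKO at D0, 2 of 24 genes were called (2 lower), with 3.15% of all genes called (1.03% higher, 2.12% lower). *Fgf15* was 10.7, 5.23 and 12.4 CPM in WT and 3.47 and 2.31 CPM in TKO (-1.71 ± 0.489, adjusted p = 0.0493), and a DKO library at 1.87 CPM was lower still. *Fgf17* was 36.0, 23.5 and 42.5 CPM in WT and 7.23 and 20.6 CPM in TKO (-1.29 ± 0.358, adjusted p = 0.0443), so that the TKO clones were further apart from each other than the higher was from WT. These clones differed in markers as well. Endoderm markers summed to 28.0 CPM in TKO replicate 2 and 8.68 to 11.9 CPM in every other D0 library, and streak and mesoderm markers to 27.6 CPM in TKO replicate 1, 18.2 CPM in replicate 2 and 11.1 to 15.6 CPM in WT. Their part in the differences was not tested. Both calls were lost in each fit without 1 *Tet1*-/- or *Tet2*-/- library and in the fits without WT replicate 1 or 3, and without WT replicate 1 another gene was called higher. *Fgf17* was also lost without either DKO library (-1.28 and -1.29) and without TKO replicate 1 (-0.72), and *Fgf15* without TKO replicate 2 (-1.44). With either TKO library left out 4 genes were called (with 1147 and 850 of all genes), and in a fit of all 24 libraries *Fgf15* had an adjusted p of 0.125. *Etv4* passed the adjusted p at 0.53 (0.0366) but not 2-fold. No gene of the 24 was called in *Tet1*-/- (0.00692% of all genes) or DKO (0.0346%), and at an unadjusted p under 0.05 and 2-fold there were 1 and 2 of them, with 248 and 436 of all genes. *Fgf4*, the leading ligand per length, was 148 to 231 CPM over all 12 libraries at D0. *Fgf8*, *Fgf14* and *Fgf23* were too low at D0 to be tested.

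At D6 edgeR called none of the 27 genes in *Tet1*-/-, DKO or TKO against WT, and 0% of all genes in each. At an unadjusted p under 0.05 and 2-fold there were 2 of the 27 in *Tet1*-/-, 4 in DKO and 4 in TKO, with 397, 796 and 1003 of all genes. With DESeq2 1 was called in *Tet1*-/-, with 0.285% of all genes, and 2 in TKO, with 3.05% of all genes. They were *Fgfr3* in *Tet1*-/- (2.99, 2.5 and 1.80 CPM, -1.21, adjusted p = 0.0271 with DESeq2 and 0.318 with edgeR), and in TKO *Fgf3* (0.646 and 0.849 CPM, -3.03 and 0.00665 with DESeq2 and 0.107 with edgeR) and *Fgf8* (30.1 and 56.7 CPM, -1.18 and 0.00912 with DESeq2 and 0.0856 with edgeR). In DKO *Fgf3* was 0.299 and 1.84 CPM (-2.54, adjusted p = 0.262), *Fgf10* 9.50 and 16.0 CPM (-2.14, 0.308) and *Fgf8* 54.7 and 49.7 CPM (-0.92, 0.256). *Fgf8* in both DKO and both TKO libraries was below every WT library. In TKO against WT DESeq2 called 4 of 8 streak and mesoderm markers (median log2 difference -2.16), 4 of 7 endoderm markers (-2.96) and 3 of 10 ESC markers (0.60), while edgeR called none of them (0 in each list, and 5, 4 and 3 at an unadjusted p under 0.05 and 2-fold). Endoderm markers summed to 34.9 to 54.4 CPM in TKO, 69.5 to 86.3 CPM in DKO and 80.4 to 288 CPM in WT, and streak and mesoderm markers to 158 to 377 CPM in TKO and 249 to 392 CPM in DKO. Their part was not tested. The comparisons of all knockouts share the WT libraries.

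Other genes of the pathway were counted from lists. Of 17 co-receptors and matrix genes, 16 were tested at D6, and 3 of them were called in *Tet2*-/- against WT, where 14.3% of all genes were called. *Flrt1* was higher (1.41) and *Fgfbp1*, which releases FGFs from the matrix (-1.59), and *Flrt3* (-1.76) were lower. Of 16 other ERK-induced genes and inhibitors 3 were called in the same comparison: *Etv1* (1.07) and *Ier2* (1.05) were higher and *Fos* was lower (-1.68), with a median of -0.00 over the 16. Of 22 intracellular signalling genes none was called in this comparison, by edgeR or by DESeq2. None passed an unadjusted p under 0.05 with 2-fold (0 genes). In the difference of the D6 to D0 changes between *Tet2*-/- and WT, edgeR called *Mapk3* of these 22 lower (-1.02, adjusted p = 0.0101). Of the 16 ERK-induced genes and inhibitors, *Egr1* (1.58) and *Etv1* (1.31) were called higher there and *Fos* lower (-1.77). No co-receptor or matrix gene was called there, and of all genes 3.54% were higher and 5.13% lower. In WT between D0 and D6, 5 of 17 co-receptors and matrix genes rose (*Fgfbp1*, *Gpc3*, *Flrt3*, *Fgfbp3* and *Fgfrl1*, by 1.83 to 3.56), where 20.7% of all genes were higher and 13.3% lower. Of the 22 intracellular signalling genes, *Sos2* (2.24), *Braf* (1.84) and *Mapk3* (1.37) rose and *Gab1* fell (-1.22), and of the ERK-induced genes 6 of 16 rose (by 1.35 to 1.86) and *Ier2* fell (-1.66). At D0 *Egr1*, 1 of 15 ERK-induced genes tested, was lower in *Tet2*-/- (-1.53, with 2.37% of all genes lower). In TKO, where 1.03% of all genes were higher, *Fgfbp1* (2.67), *Fosl1* (1.92) and *Phlda1* (1.04) were higher, 1 of 16 and 2 of 15 genes tested. At D6 *Fgfbp1* (-1.28, -1.91 and -2.03) and *Flrt2* (-2.15, -2.09 and -1.84) were called lower in *Tet2*-/- than in *Tet1*-/-, DKO and TKO. Of all genes 4.48%, 6.37% and 6.01% were lower there, and 1.87%, 3.13% and 2.63% higher. *Flrt1* was higher (1.10) and *Egr1* lower (-1.12) than in *Tet1*-/-, and *Etv1* was higher than in DKO (1.22). Compared with TKO, *Fos* was lower (-1.60) and *Myc* higher (1.26).

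The remaining genes are given by their ranges. *Fgf2*, *Fgf6*, *Fgf7*, *Fgf9*, *Fgf12*, *Fgf16*, *Fgf20*, *Fgf21* and *Fgf22* (9 genes) passed the filter at neither day, with at most 2 to 10 counts in any library and a highest level of 0.0864 to 0.357 CPM. Differences in these 9 genes were not detectable at this depth in the rows used. For *Fgf12* (4 rows) the first row was not the highest, so its low level also depends on the row taken. *Fgf13*, a homologous factor that binds sodium channels, was 1.94 to 5.35 CPM over all D0 libraries and 7.67 to 14.0 CPM at D6, and was called higher at D6 in each genotype. *Fgf14* had 0, 2 and 1 counts in WT at D0 and 0.446 to 0.907 CPM at D6, so no fold is given. *Spry3* and *Fgf23* reached at most 2.2 and 0.663 CPM in any library, and *Spry3* was called higher at D6 in each knockout (1.83 to 3.23, in *Tet2*-/- lost in 6 of 24 fits without 1 library). In WT its log2 change was 0.91 (adjusted p = 0.125), and the difference of the changes from WT was not called for *Spry3* in any knockout. *Spred1* and *Spred2* ranged from 16.6 to 40.4 and from 49.3 to 82.3 CPM over all 24 libraries, and neither was called in any comparison.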

How the data were processed

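RNA-seq of 24 libraries was analysed. The authors extracted RNA with Trizol, added ERCC spike-ins, made poly(A) libraries, sequenced them paired-end and mapped reads with STAR 2.5.1 to mm9 (submitters' processing notes and methods). The counts deposited by the authors are unscaled whole reads per RefSeq transcript row, 31928 rows per table; the counting program is named differently in the sources and its strand setting is not given in the sources used here, so reads of overlapping genes on opposite strands cannot be told apart. The study normalized read counts with the spike-ins for its own analysis. Spike-in rows were not used here (0 such rows in the tables read), so the scaling differs from the study's.

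The first row of each symbol was used. Of the 36 genes 10 had more than 1 row, and the first was not the highest for 6 (*Fgf8*, *Fgf11*, *Fgf12*, *Fgf13*, *Fgf18* and *Spred1*). The genes and lists were chosen with earlier results of these data known, and 1 gene of the intracellular list is not reported here. Counts were tested in R 4.3.3 with edgeR 4.0.16: filterByExpr (minimum count 10), TMM factors (0.918 to 1.10 over all libraries), quasi-likelihood F test, Benjamini-Hochberg adjustment over all genes tested. Fits held the 12 libraries of a day (14456 genes at D0, 15435 at D6) or all 24 (15639 genes, for D6 against D0 and differences of changes). Standard errors are the log2 difference over the square root of F. CPM are TMM-scaled over the 24 libraries, and CPM per kb use the exon length of the mm9 annotation, found for 35 genes (not *Spry3*). Precision is limited by 2 to 3 clones per group. Scripts were tested on simulated counts. The alternatives were DESeq2 1.42.0, its size factors in edgeR, library totals, no filter, the highest row of a symbol, replicate number or clone as a block, all 24 libraries in 1 fit and leaving out each library.

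Full values were given for genes called against WT, between *Tet2*-/- and another knockout or in a difference of changes, and for the highest gene of each role. By the labels clones pair D0 with D6 (DKO D6 replicate 1 was read as clone 5.12): deviations from group means correlated at 0.0613 to 0.164 in 11 pairs of the same clone (in a group of 2 clones the value for the other clone is the negative by construction). *Tet1*-/- had clone 2.3 at D0 only and 2.2 at D6 only. Promoters came from a RefSeq table; *Dusp4*, *Etv4*, *Fgf1*, *Fgf8*, *Fgf15*, *Fgf16*, *Fgf17*, *Fgf20*, *Fgfr1*, *Spry3* and *Spry4* were not matched.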

Additional observations from a re-analysis of the deposited data

Results flagged for a closer look

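The D6 to D0 change of 5 genes in *Tet2*-/- and of 1 gene in TKO differed from that of WT by the test of the difference itself (edgeR, adjusted p under 0.05). In *Tet2*-/- the differences (log2) were 2.70 for *Fgf1*, -6.31 for *Fgf10*, 2.59 for *Fgf15*, 1.13 for *Spry2* and 2.39 for *Spry4*. In TKO the difference was -3.47 for *Fgf10*. As given above, this TKO call was lost in most fits without 1 library. In *Tet2*-/- the calls of *Fgf1*, *Fgf15* and *Spry2* were lost in some of these fits, while those of *Fgf10* and *Spry4* held in each. The difference for *Fgf10* in DKO, from 4.58 and 6.35 CPM at D0 to 9.50 and 16.0 CPM at D6, was -2.43 (adjusted p = 0.55). All these tests share the WT libraries of both days.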

How the results depend on the processing

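Of 1027 values of single genes under other settings, 969 kept their direction and side of the threshold, 20 fell short of it, 38 passed it and 0 changed direction, and of 3036 values without 1 library the counts were 2746, 244, 46 and 0. Counts of genes called changed by more than 1.5 times in 10 of 131 values. With DESeq2 they became 1 for *Tet1*-/- at D6 (from 0), 2 for TKO at D6 (from 0) and 10 for *Tet2*-/- against TKO (from 4). With all 24 libraries in 1 fit they became 1 for TKO at D0 (from 2), 14 for *Tet2*-/- at D6 (from 9), 3 for TKO at D6 (from 0), and 9 for *Tet2*-/- against *Tet1*-/- and 9 against TKO (each from 4).

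With the replicate number as a block, 1 gene in place of 2 was called for TKO at D0, where *Fgf17* was lost (-1.26, adjusted p = 0.0855). *Fgfr2* in *Tet2*-/- at D0 was lost as well (-1.90, adjusted p = 0.0602), and so were *Fgfr3* (-1.33, adjusted p = 0.0679) and *Spry2* (1.06, adjusted p = 0.0535) against DKO. The numbers are not stated to mark a shared batch, and same-numbered knockout and WT libraries correlated at -0.288 to 0.253 (18 pairs), other-numbered at -0.291 to 0.362 (36 pairs; in knockouts with 2 clones the signs are tied by centring). With the clone as a block the count for the TKO course became 0 (from 1). In *Tet1*-/- between days the block lost *Fgf3* (0.53, adjusted p = 0.47), *Fgf11* (1.10, 0.155), *Fgf15* (1.26, 0.072) and *Fgf23* (1.95, 0.108).

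Without 1 library the counts ranged from 0 to 4 for *Tet2*-/- at D0, 0 to 1 for DKO at D0, 0 to 4 for TKO at D0, 0 to 11 for *Tet2*-/- at D6 and 0 to 3 for TKO at D6. They ranged from 0 to 9 for *Tet2*-/- against *Tet1*-/-, 0 to 10 against DKO and 0 to 9 against TKO. Between days they ranged from 15 to 20 in WT, 13 to 18 in *Tet1*-/-, 8 (without either D0 or the second D6 *Tet2*-/- library) to 15 in *Tet2*-/-, 12 to 14 in DKO and 10 to 14 in TKO, and for differences of changes from 2 to 8 in *Tet2*-/- and 0 to 3 in TKO. A fit without 1 library also holds fewer clones, and the cause of these changes was not tested. Library totals shifted the median change of all genes between days by 0.14 to 0.21 (log2). The *Spry4* fall in *Tet2*-/- was then -1.01 (adjusted p = 0.0513).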
